A study of Mus musculus with 32 samples.

Results

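The genes described here are the Wnt ligands of the mouse and the proteins at the cell surface that receive, release or bind them. They were taken by name: each protein-coding gene called Wnt followed by a number, each Frizzled gene, the co-receptors Lrp5, Lrp6, Ror1, Ror2 and Ryk, the secreted Frizzled-related proteins Sfrp1, Sfrp2, Sfrp5 and Frzb, and the secretion genes Porcn and Wls. This gave 40 of the 31053 genes counted, made up of 19 ligands, 10 Frizzled receptors, 5 co-receptors, 4 secreted inhibitors and 2 secretion genes, and the rule used gene names and no measured value, though the set was proposed with earlier results of these data known. The results turn on a handful of them. Fzd2, Fzd7, Sfrp2 and Porcn were higher, and Fzd9 and Lrp6 lower, after 4 days of differentiation whether or not β-catenin had been induced. Wls rose only in the arms that had received β-catenin, Porcn rose furthest in the arm without it, and Sfrp1 fell in each arm but furthest in the arm without it; these differences between arms were tested directly.

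Wnt proteins are secreted signals. In the producing cell the acyltransferase Porcn attaches a lipid to the ligand and the transmembrane protein Wls carries it to the surface. On the receiving cell a Frizzled receptor binds the ligand, and its partner decides the branch: with Lrp5 or Lrp6 the signal stabilises β-catenin, which works with TCF and LEF factors in the nucleus, whereas Ror1, Ror2 and Ryk serve mainly branches that do not need β-catenin. Secreted Frizzled-related proteins bind Wnt ligands outside the cell. In embryonic stem cells (ESCs) the β-catenin branch is known to restrain exit from pluripotency and, later, to pattern the germ layers.

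RNA came from C1, a mouse ESC line without its own β-catenin (Ctnnb1 knockout) that carries a transgene for a constitutively active β-catenin fused to mCherry and to a destabilising domain. Doxycycline (dox) switches on transcription of the fusion and trimethoprim (TMP) stabilises the protein. The deposited growth protocol describes serum and LIF, which the study gives as its general ESC culture. For the RNA sequencing, per the study's text, only cells first cultured in medium with inhibitors of MEK and GSK3 and LIF were used. They were treated for 48 h with 10 µM TMP alone, or with 10 µM TMP and 100 ng/mL dox, and live cells were then sorted: TMP-only cells gave C1, and dox-treated cells were divided by mCherry into a middle fraction (C1M) and a high fraction (C1H). The sorted cells were profiled at day 0 or differentiated as a monolayer in serum-free medium without the inhibitors or LIF until day 4, C1 with 10 µM TMP (C1T), C1M and C1H without drugs (C1MV, C1HV) or with 10 µM TMP and 100 ng/mL dox (C1MDT, C1HDT). Each of the 8 groups had 4 libraries, labelled as biological replicates. C1M and C1H are mCherry gates of a single line, so the groups model transgene dose in that line. C1M and C1H also differ from C1 in dox and in the gate, and the day 4 arms from them differ from C1T likewise. In each comparison with C1 or C1T the fusion therefore cannot be told apart from dox and gating. C1MV and C1HV differ from C1T in TMP as well as in their history. QuantSeq libraries read the end of each transcript, so values are given as CPM, reads relative to the library total on genes with TMM scaling, and compared between groups, not between genes.

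Gene counts summed to 1366951 to 3648787 reads per library. The share of uniquely aligned reads outside annotated genes was 19.5% to 23.1% at day 0 and 10.1% to 15.6% at day 4, so that it moved with each comparison of the days, and its part in the results was not tested. Ctnnb1, the switched gene, averaged 7.81 ± 2.62 CPM (SD, n = 4) in C1, 12.2 ± 3.84 in C1M and 41.1 ± 5.70 in C1H, and at day 4 9.74 ± 2.47 in C1T, 9.16 ± 2.57 in C1MV, 6.21 ± 1.84 in C1HV, 30.8 ± 3.73 in C1HDT and 29.2 ± 4.29 in C1MDT. The order of the means followed the labels at day 0 and for drugs against no drugs at day 4, while C1HV lay below C1MV and C1T, and C1M against C1 did not pass the test (log2 fold change 0.61, SE 0.25, edgeR FDR = 0.0551). Summed over 8 pluripotency markers, libraries ranged from 6164 to 6387 CPM in C1, 4601 to 4894 in C1M and 4701 to 5009 in C1H, with 6 and 5 of the 8 called lower in C1M and C1H than in C1 and Nanog higher in C1M. At day 4 they ranged from 823 to 986 in C1T, 1158 to 1545 in the arms without drugs and 538 to 727 in the arms with drugs. Summed over 6 endoderm markers, which include Gata4, Gata6 and Sox17, they ranged from 10.5 to 21.0 CPM in C1, 22.7 to 39.4 in C1M, 26.6 to 32.8 in C1H, 9.79 to 22.9 in C1T, 233 to 378 without drugs and 523 to 649.6 with drugs; all 6 were called higher than in C1T in each of these 4 arms. Summed over 5 markers of the post-implantation epiblast, among them Fgf5 and Otx2, libraries ranged from 131 to 189.9 CPM at day 0, 1833 to 2251 in C1T, 745 to 861 without drugs and 1219 to 1352 with drugs, and 2 to 4 of the 5 were called lower than in C1T in each induced arm. Against C1T, Pax6 of 4 neuroectoderm markers was called lower in all 4 arms and Nes and Sox1 higher with drugs. At day 0 the sums of the pluripotency and endoderm lists in C1M and C1H did not overlap those in C1, so they moved with each comparison against C1 given below, including those of Wls, Fzd2 and Fzd7. Sox7, one of the 6, was at 0 in C1. In bulk RNA, fewer cells of a type and less RNA per cell cannot be told apart, and the part of the marker differences in the results below was not tested.

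The start regions of 4 members are printed. Wls rose only in the induced arms and Fzd5 gave the most Frizzled reads at day 0, and results turn on them. Wnt11 and Wnt5b are printed for contrast, as the members with a window that holds the core motif of TCF and LEF factors. The regions come from RefSeq (GRCm38.p6) and run from 250 bases before to 50 bases after the annotated start, 5′ to 3′ on the gene's strand. Capitals mark a match to CTTTGAT or CTTTGAA on either strand.
Wls (chr3:159839400-159839699, forward strand): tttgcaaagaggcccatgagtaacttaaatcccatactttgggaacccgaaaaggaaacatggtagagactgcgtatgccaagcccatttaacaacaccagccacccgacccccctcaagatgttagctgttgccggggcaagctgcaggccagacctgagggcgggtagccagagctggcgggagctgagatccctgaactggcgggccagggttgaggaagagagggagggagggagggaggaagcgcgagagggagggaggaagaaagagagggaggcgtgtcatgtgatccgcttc
Fzd5 (chr1:64737701-64738000, reverse strand): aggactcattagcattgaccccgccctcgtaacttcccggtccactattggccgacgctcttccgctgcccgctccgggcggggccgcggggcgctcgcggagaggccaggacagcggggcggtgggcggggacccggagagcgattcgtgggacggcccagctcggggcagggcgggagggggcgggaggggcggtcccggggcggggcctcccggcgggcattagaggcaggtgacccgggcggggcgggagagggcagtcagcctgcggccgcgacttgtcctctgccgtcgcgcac
Wnt11 (chr7:98834862-98835161, forward strand): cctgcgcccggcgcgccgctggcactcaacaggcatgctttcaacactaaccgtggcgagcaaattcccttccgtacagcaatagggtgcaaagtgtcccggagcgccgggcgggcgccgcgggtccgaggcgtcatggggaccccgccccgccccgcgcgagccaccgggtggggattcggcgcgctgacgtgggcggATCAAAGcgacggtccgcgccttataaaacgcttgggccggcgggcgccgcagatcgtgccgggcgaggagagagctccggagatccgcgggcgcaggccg
Wnt5b (chr6:119449337-119449636, reverse strand): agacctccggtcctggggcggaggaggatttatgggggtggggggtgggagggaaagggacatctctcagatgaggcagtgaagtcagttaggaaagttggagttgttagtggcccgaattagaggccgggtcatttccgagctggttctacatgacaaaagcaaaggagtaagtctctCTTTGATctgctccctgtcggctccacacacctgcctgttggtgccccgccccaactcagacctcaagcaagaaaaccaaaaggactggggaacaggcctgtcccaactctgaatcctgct
The Wls and Fzd5 windows held neither motif. CTTTGAT stood in the Wnt5b window as printed and in the Wnt11 window on the other strand, where it reads ATCAAAG. Windows were found for 28 of the 40 members, 31 windows in all, and 2 of these 31 held either motif, against 8.651% of the 32851 promoters of the table (3.729% for CTTTGAT and 5.135% for CTTTGAA). The printed Wnt5b window belongs to a start 94961 bases from that of the GENCODE gene model. The other Wnt5b windows, including that at the start of the gene model, and the other Wnt11 window held neither motif. Entries for Sfrp1, Porcn, Fzd2, Fzd3, Fzd6, Fzd8, Lrp5, Lrp6, Wnt5a, Wnt7b, Wnt8a and Wnt10a were missing. A match describes these letters only, and neither Wnt11 nor Wnt5b passed the test in any comparison below.

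Of the 40 members, 31 reached at least 1 CPM in 4 or more libraries and were tested among 15280 genes. The 9 that did not were all ligands: Wnt1, Wnt2, Wnt2b, Wnt3a, Wnt7a, Wnt8b, Wnt9b, Wnt10a and Wnt10b, each with 6 to 24 reads over all 32 libraries and at most 7 in any one. With no filter on low counts, Wnt1 was called higher in C1MDT than in C1M and in C1HDT than in C1H. There the day 0 groups had no Wnt1 read and the day 4 groups 7 reads each. Wnt2 was called higher in C1T than in C1 and than in C1MDT, and its called interaction in the C1MDT arm was negative. All 7 Wnt2 reads of C1T came from 1 library. Wnt11, Wnt16 and Fzd1 passed only because of a group in which they were higher (C1HV for Wnt11, C1M and C1H for Wnt16, and C1M for Fzd1). All 19 ligands summed gave 12.3 ± 3.08 CPM (SD, n = 4) in C1 and 22.0 ± 6.61 in C1T, with the other groups' means between these, and a library held 20 to 83 ligand reads. The 10 Frizzled genes summed gave 128 ± 10.6 CPM in C1 and 227 ± 18.4 in C1HV, the lowest and highest means. Precision was therefore low for the ligands, where 3 reads equal 0.837 to 2.14 CPM. A group whose libraries all had 3 reads or fewer is called at the floor here, and folds are then lower bounds, computed with 3 reads in each library of that group; both cover counting error only.

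In total 24 of the 31 tested members passed an FDR of 0.05 by edgeR's quasi-likelihood test in at least 1 of 16 pairwise comparisons, next to 85.3% of all tested genes, so the count itself is no result about the members; Wnt4, Wnt5b, Wnt6, Wnt9a, Wnt11, Fzd6 and Fzd8 passed in none. Wnt16 and Fzd1 are among the 24, but each was called only between a group that let it into the test and another, so these calls support nothing; they add 1 to the counts of C1H against C1 and of the 4 induced arms over differentiation. At day 0 C1M and C1H differ from C1 in the fusion, in dox and in the mCherry gate together. There 3 members were called in C1M against C1, next to 26.3% of all tested genes, and 8 in C1H against C1, next to 25.9%. Both comparisons share the C1 libraries, and the counts were 5 without C1 replicate 4 in C1M and 5 without C1 replicate 1 in C1H. Between C1H and C1M no member was called by edgeR (background 1.77%), 3 had an unadjusted p under 0.05, and DESeq2 called 1, as edgeR did without C1H replicate 3. Over differentiation, 14 members were called in C1T against C1 (background 49.2%), 17 in C1MV against C1M (45.8%), 17 in C1MDT against C1M (52.4%), 16 in C1HV against C1H (47.0%) and 16 in C1HDT against C1H (55.7%). As shares of the 31 tested members these counts were 9.68% in C1M and 25.8% in C1H at day 0 and 45.2% to 54.8% over differentiation, which is near the background except in C1M against C1, where it was lower.

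At day 4 the induced arms were set against C1T, which all 4 comparisons share. Called were 7 members in C1MV (background 30.2%), 10 in C1MDT (33.4%), 8 in C1HV (28%) and 10 in C1HDT (33.5%). The effect of keeping the drugs gave 4 called members in C1MDT against C1MV (12.6%) and 6 in C1HDT against C1HV (15.9%). The first count was 1 without C1MV replicate 3 and 2 without any 1 of C1MV replicates 1 and 4 and C1MDT replicates 1, 2 and 4, and the second was 3 without C1HV replicate 2. Between the high and the middle fraction at day 4 edgeR called no member, without drugs (background 0.00654%, 2 members with an unadjusted p under 0.05, none by DESeq2) or with them (background 0%, 1 member with an unadjusted p under 0.05, none by DESeq2). The median log2 fold change over the 31 tested members ran from -0.19 in C1MV against C1M to 0.38 in C1MDT against C1M, where the medians over all tested genes were -0.04 and -0.06. With genes at the floor set to their bound, or to 0 where there was none, the members' median lay between -0.0056 and 0.0438 in the 16 comparisons.

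**Figure D1:**
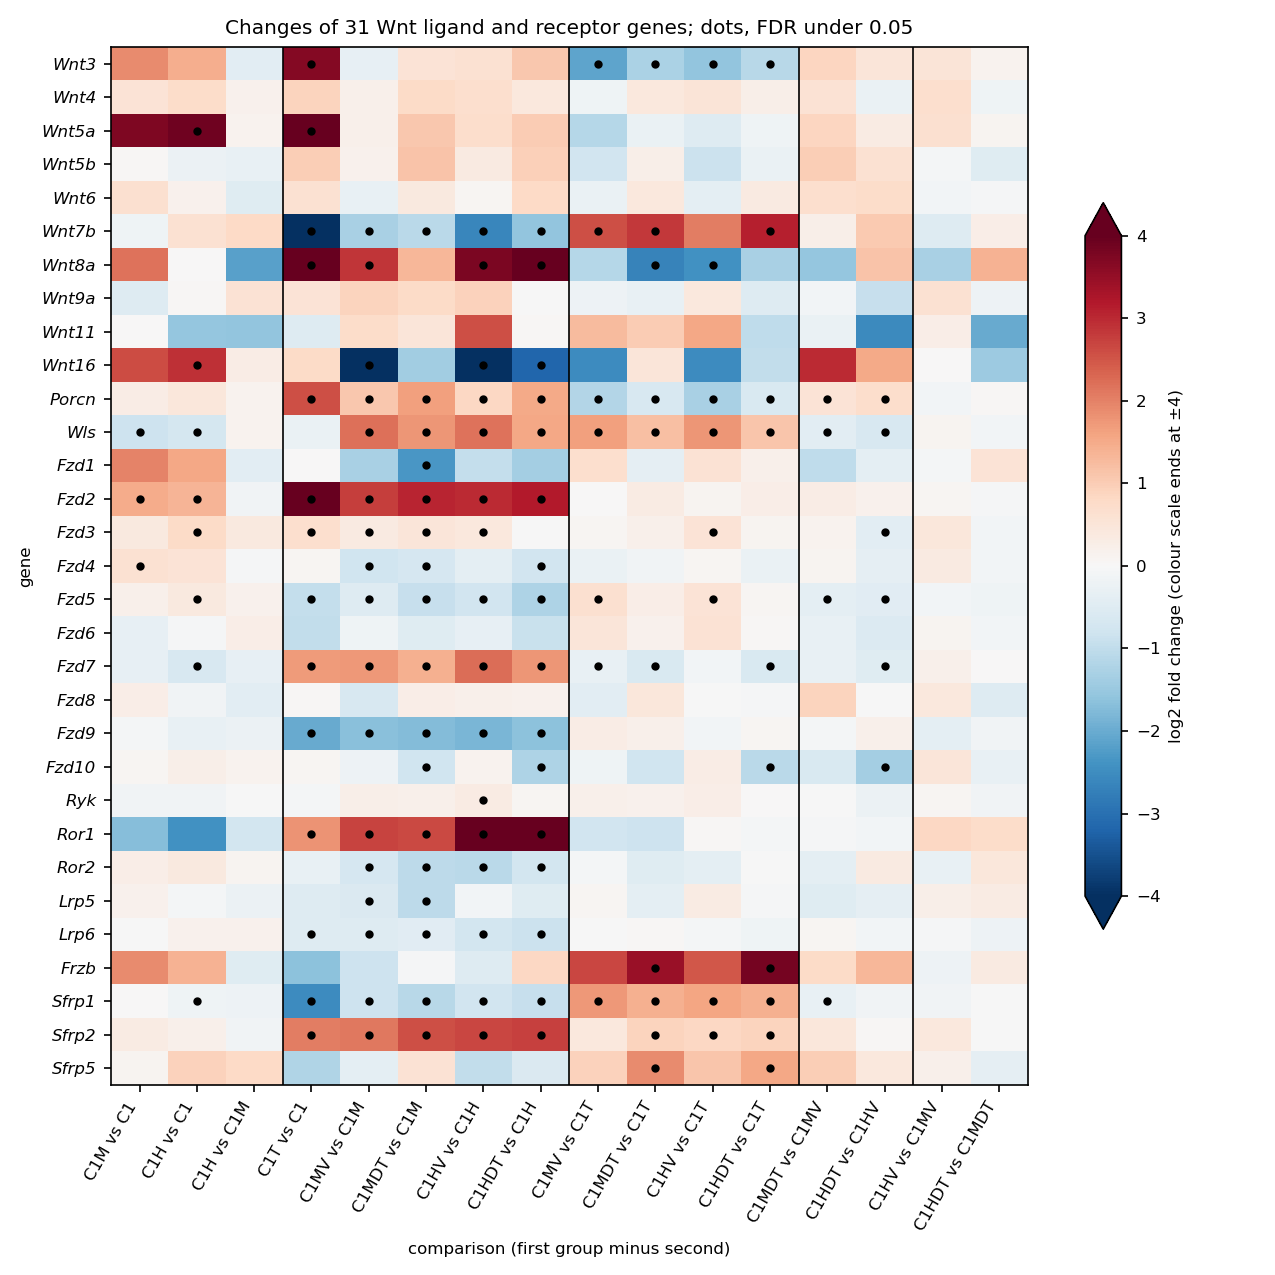
Heat map of log2 fold changes from edgeR for the tested members (rows, grouped by role) in the pairwise comparisons (columns); colours end at ±4 and a dot marks an FDR under 0.05. Wls runs from lower at day 0 to higher in every induced arm, while Fzd2, Fzd7 and Sfrp2 are higher and Fzd9 lower in all 5 comparisons of day 4 with day 0. Fitted values of genes with a group at the floor depend on the prior count and are no bound.

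Among the ligands, no gene was abundant and 5 of the 10 tested passed in at least 1 comparison (background 85.3%): Wnt3, Wnt5a, Wnt7b, Wnt8a and Wnt16, the last with the limit given above. Wnt7b, known from placenta and lung and able to act through β-catenin, fell over differentiation. Its values in C1 were 5.03, 5.09, 6.74 and 2.87 CPM, and in C1T 0.480, 0, 0.476 and 0. No C1T library reached the lowest C1 library, C1T was at the floor, and Wnt7b was at least 3.25-fold lower there. In C1M it had 3.39, 4.25, 5.86 and 3.71 CPM, in C1MV 1.61, 0.375, 2.54 and 2.85 and in C1MDT 0.576, 0.737, 3.63 and 2.41. In C1H it had 5.45, 9.06, 5.86 and 10.1 CPM, in C1HV 0, 1.71, 2.15 and 0.650 and in C1HDT 1.36, 2.39, 2.09 and 4.08. C1MDT reached into the range of C1M, while C1MV lay below C1M and both C1H arms below C1H. The log2 fold change was -1.31 (SE 0.48, edgeR FDR = 0.0183) for C1MV against C1M and -1.07 (SE 0.45, edgeR FDR = 0.0349) for C1MDT, and -2.62 (SE 0.50, edgeR FDR = 3.46e-06) for C1HV against C1H and -1.57 (SE 0.40, edgeR FDR = 3.78e-04) for C1HDT. Against C1T at day 4, Wnt7b was at least 1.22-fold higher in C1MV, 1.21-fold in C1MDT and 1.63-fold in C1HDT, and these 3 passed the test. For Wnt7b, C1MV vs C1M lost its call without any 1 of C1M replicate 3 and C1MV replicate 2 (edgeR FDR 0.0805 to 0.124). For Wnt7b, C1MDT vs C1M lost its call without any 1 of C1M replicates 2 and 3 and C1MDT replicates 1 and 2 (edgeR FDR 0.0502 to 0.143). Without C1MDT replicate 3 the fitted log2 fold change of Wnt7b in C1MDT vs C1M was -1.66 in place of -1.07 (edgeR FDR = 0.00699). Without C1HV replicate 3 the fitted log2 fold change of Wnt7b in C1HV vs C1H was -3.22 in place of -2.62 (edgeR FDR = 5.51e-06). For Wnt7b, C1MV vs C1T lost its call without any 1 of C1T replicate 2 and C1MV replicate 3 (edgeR FDR 0.0755 to 0.0771). For Wnt7b, C1MDT vs C1T lost its call without C1MDT replicate 3 (edgeR FDR = 0.0721).

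Wnt3, which is needed for the primitive streak in the embryo, was at the floor in C1 and reached 6.71, 2.91, 8.10 and 3.26 CPM in C1T, at least 3.53-fold higher and without overlap. In the day 4 arms with induced β-catenin it ranged from 0.363 to 3.35 CPM and was called lower than C1T in all 4, with log2 fold change -2.12 (SE 0.53, edgeR FDR = 7.85e-04) in C1MV, -1.25 (SE 0.46, edgeR FDR = 0.0270) in C1MDT, -1.12 (SE 0.46, edgeR FDR = 0.0490) in C1HDT and -1.59 (SE 0.52, edgeR FDR = 0.0130) in C1HV. C1MV lay below all C1T libraries and the other arms reached into their range. Without C1 replicate 4 the fitted log2 fold change of Wnt3 in C1T vs C1 was 4.62 in place of 3.67 (edgeR FDR = 2.42e-06). For Wnt3, C1MDT vs C1T lost its call without any 1 of C1T replicates 1 and 3 and C1MDT replicates 1 and 3 (edgeR FDR 0.0687 to 0.173). For Wnt3, C1HV vs C1T lost its call without any 1 of C1T replicates 1 and 3 and C1HV replicate 3 (edgeR FDR 0.0502 to 0.0917). For Wnt3, C1HDT vs C1T lost its call without any 1 of C1T replicates 1 and 3 and C1HDT replicates 1, 2 and 4 (edgeR FDR 0.0838 to 0.240). Wnt3 in C1HDT vs C1T was not called with scaling by library size (edgeR FDR = 0.0561), DESeq2 (FDR = 0.0665), no filter on low counts (edgeR FDR = 0.0795) and the replicate block (edgeR FDR = 0.0549).

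Wnt8a, a ligand of the posterior embryo, had no read in C1 or C1H and 3.84, 5.83, 1.91 and 3.26 CPM in C1T, at least 2.49-fold higher. It was at least 1.71-fold higher in C1MV than in C1M and at least 1.30-fold higher in C1HDT than in C1H. C1HV against C1H was also called, but both groups were at the floor and no fold is given. Against C1T it was at least 2.28-fold lower in C1HV, and lower in C1MDT with log2 fold change -2.68 (SE 0.72, edgeR FDR = 0.00161). For Wnt8a, C1MV vs C1M lost its call without C1MV replicate 4 (edgeR FDR = 0.0615). For Wnt8a, C1HV vs C1H lost its call without any 1 of C1H replicates 1 and 2 and C1HV replicate 1 (edgeR FDR 0.0503 to 0.0651). Without C1HDT replicate 4 the fitted log2 fold change of Wnt8a in C1HDT vs C1H was 4.21 in place of 4.89 (edgeR FDR = 0.00767). Without C1MDT replicate 2 the fitted log2 fold change of Wnt8a in C1MDT vs C1T was -3.71 in place of -2.68 (edgeR FDR = 5.19e-04). For Wnt8a, C1HV vs C1T lost its call without C1T replicate 2 (edgeR FDR = 0.0601).

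Wnt5a, the best known ligand of the branch without β-catenin, had no read in the 4 C1 libraries. It had 1.70, 0.348, 0.733 and 0 CPM in C1H and 0.480, 0.832, 3.81 and 1.96 in C1T, which was at least 1.19-fold higher than C1. Each day 4 library held at least 1 read of it. Wnt16 had 0.341, 1.05, 2.56 and 1.26 CPM in C1H and 0.848, 0, 1.63 and 1.65 in C1M. C1 had Wnt16 reads in 1 library only (0.566 CPM), and C1MV and C1HV had no read. As Wnt16 was tested only through C1M and C1H, its calls are a description: it was called higher in C1H than in C1 and lower in C1MV, C1HV and C1HDT than in their day 0 fractions, with a bound above 1 only for C1HDT (at least 1.10-fold lower). For Wnt5a, C1H vs C1 lost its call without any 1 of C1 replicates 1, 2, 3 and 4 and C1H replicates 1 and 3 (edgeR FDR 0.0586 to 0.191). Wnt5a in C1H vs C1 was not called with DESeq2 (FDR = 0.0704) and a fit of only the groups compared (edgeR FDR = 0.0542). Without C1T replicate 3 the fitted log2 fold change of Wnt5a in C1T vs C1 was 4.34 in place of 5.09 (edgeR FDR = 0.0155). For Wnt16, C1H vs C1 lost its call without any 1 of C1 replicates 1, 3 and 4 and C1H replicates 2, 3 and 4 (edgeR FDR 0.0545 to 0.178). Wnt16 in C1H vs C1 was not called with DESeq2 (FDR = 0.101), no filter on low counts (edgeR FDR = 0.0688) and the replicate block (edgeR FDR = 0.0617). Without C1 replicate 2 the fitted log2 fold change of Wnt16 in C1H vs C1 was 4.69 in place of 2.93 (edgeR FDR = 0.0216). For Wnt16, C1HDT vs C1H lost its call without C1H replicate 3 (edgeR FDR = 0.0664). Without C1HDT replicate 2 the fitted log2 fold change of Wnt16 in C1HDT vs C1H was -4.68 in place of -3.16 (edgeR FDR = 0.00403).

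The tested ligands that passed in no comparison were Wnt4 (0 to 1.71 CPM over the 32 libraries), Wnt5b (0 to 3.91), Wnt6 (0 to 7.26), Wnt9a (0 to 4.30) and Wnt11 (0 to 1.95). Several ligand genes lie next to each other: Wnt6 and Wnt10a on chromosome 1 with 6.2 kb between them, Wnt3a and Wnt9a on chromosome 11 with 16.2 kb, Wnt9b and Wnt3 on chromosome 11 with 24.3 kb, and Wnt10b and Wnt1 on chromosome 15 with 11.7 kb. In 3 of these 4 pairs 1 gene was tested and its neighbour was not, and in the fourth neither was. Wnt5a, Wnt7b, Wnt6 and Sfrp2 overlap an antisense gene, and Wnt5b overlaps Fbxl14 on the other strand; whether the counting used strand is not given in the sources used here, so reads of such partners may not be told apart.

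Porcn and Wls act one after the other in ligand secretion, and they diverged. Porcn had 4.19, 5.09, 4.67 and 8.14 CPM in the C1 libraries and 35.01, 38.3, 30.02 and 28.1 in C1T, a log2 change of 2.58 (SE 0.24, edgeR FDR = 3.81e-19) with no overlap. In C1M it had 7.21, 7.45, 7.49 and 4.95 CPM, in C1MV 14.1, 18.0, 13.4 and 11.4 and in C1MDT 27.1, 23.6, 22.0 and 14.4. In C1H it had 6.47, 10.1, 8.06 and 5.46 CPM, in C1HV 13.4, 10.8, 15.0 and 14.3 and in C1HDT 19.4, 28.1, 17.2 and 23.5. All 5 day 4 groups lay above their day 0 groups without overlap, and the 8 libraries without drugs lay below every C1T library. The epiblast marker sums took the same order of C1T, arms with drugs, arms without and day 0, and their part in the Porcn values was not tested. The log2 fold change over differentiation was 1.08 (SE 0.24, edgeR FDR = 6.86e-05) in C1MV, 1.64 (SE 0.22, edgeR FDR = 8.57e-11) in C1MDT, 1.52 (SE 0.22, edgeR FDR = 4.88e-10) in C1HDT and 0.82 (SE 0.25, edgeR FDR = 0.00342) in C1HV. Against C1T, Porcn was lower with log2 fold change -1.19 (SE 0.20, edgeR FDR = 1.46e-07) in C1MV, -1.30 (SE 0.20, edgeR FDR = 5.52e-08) in C1HV, -0.60 (SE 0.18, edgeR FDR = 0.00530) in C1HDT and -0.63 (SE 0.18, edgeR FDR = 0.00317) in C1MDT. It was higher with the drugs than without them, with log2 fold change 0.56 (SE 0.20, edgeR FDR = 0.0479) in the middle and 0.70 (SE 0.21, edgeR FDR = 0.0114) in the high fraction. For Porcn, C1MDT vs C1T lost its call without C1MDT replicate 4 (edgeR FDR = 0.0568). For Porcn, C1MDT vs C1MV lost its call without any 1 of C1MV replicates 1, 3 and 4 and C1MDT replicates 1, 2 and 3 (edgeR FDR 0.102 to 0.153). Porcn in C1MDT vs C1MV was not called with scaling by library size (edgeR FDR = 0.0562), DESeq2 (FDR = 0.0540) and no filter on low counts (edgeR FDR = 0.0650). For Porcn, C1HDT vs C1HV lost its call without any 1 of C1HV replicate 2 and C1HDT replicate 2 (edgeR FDR 0.0616 to 0.0715).

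Wls took another order. At day 0 it had 21.4, 22.1, 23.9 and 19.1 CPM in C1, 8.06, 11.7, 16.3 and 11.6 in C1M and 14.6, 15.0, 10.3 and 13.4 in C1H, so both induced fractions lay below all C1 libraries (log2 fold change -0.83 [SE 0.19, edgeR FDR = 2.77e-04] and -0.69 [SE 0.19, edgeR FDR = 0.00247]). At day 4 it had 17.7, 15.8, 20.5 and 17.6 CPM in C1T, which overlapped C1 and was not called (log2 fold change -0.27, SE 0.19, edgeR FDR = 0.232). The induced arms lay above both: 47.1, 58.1, 62.1 and 57.0 CPM in C1MV and 59.9, 71.1, 49.02 and 63.7 in C1HV without drugs, and 41.5, 41.3, 44.1 and 39.2 in C1MDT and 46.9, 35.3, 34.8 and 37.4 in C1HDT with them. No library of these 4 groups overlapped C1T or day 0. Over differentiation the log2 fold change was 2.21 (SE 0.16, edgeR FDR = 3.12e-26) in C1MV, 2.17 (SE 0.16, edgeR FDR = 4.72e-26) in C1HV, 1.54 (SE 0.16, edgeR FDR = 1.15e-15) in C1HDT and 1.77 (SE 0.17, edgeR FDR = 5.18e-19) in C1MDT. Against C1T it was 1.65 (SE 0.16, edgeR FDR = 2.73e-17) in C1MV, 1.76 (SE 0.16, edgeR FDR = 1.36e-18) in C1HV, 1.12 (SE 0.17, edgeR FDR = 4.96e-09) in C1HDT and 1.22 (SE 0.16, edgeR FDR = 1.76e-10) in C1MDT. Cells kept in the drugs had less Wls than those without, with log2 fold change -0.43 (SE 0.13, edgeR FDR = 0.0178) in the middle and -0.64 (SE 0.14, edgeR FDR = 1.86e-04) in the high fraction. For Wls, C1MDT vs C1MV lost its call without any 1 of C1MV replicate 3 and C1MDT replicate 4 (edgeR FDR 0.0597 to 0.108). In the same samples the endoderm sums given above were higher in the induced arms than in C1T, and with drugs the endoderm sums were higher and the pluripotency sums lower than without; their part in the Wls values was not tested.

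**Figure D2:**
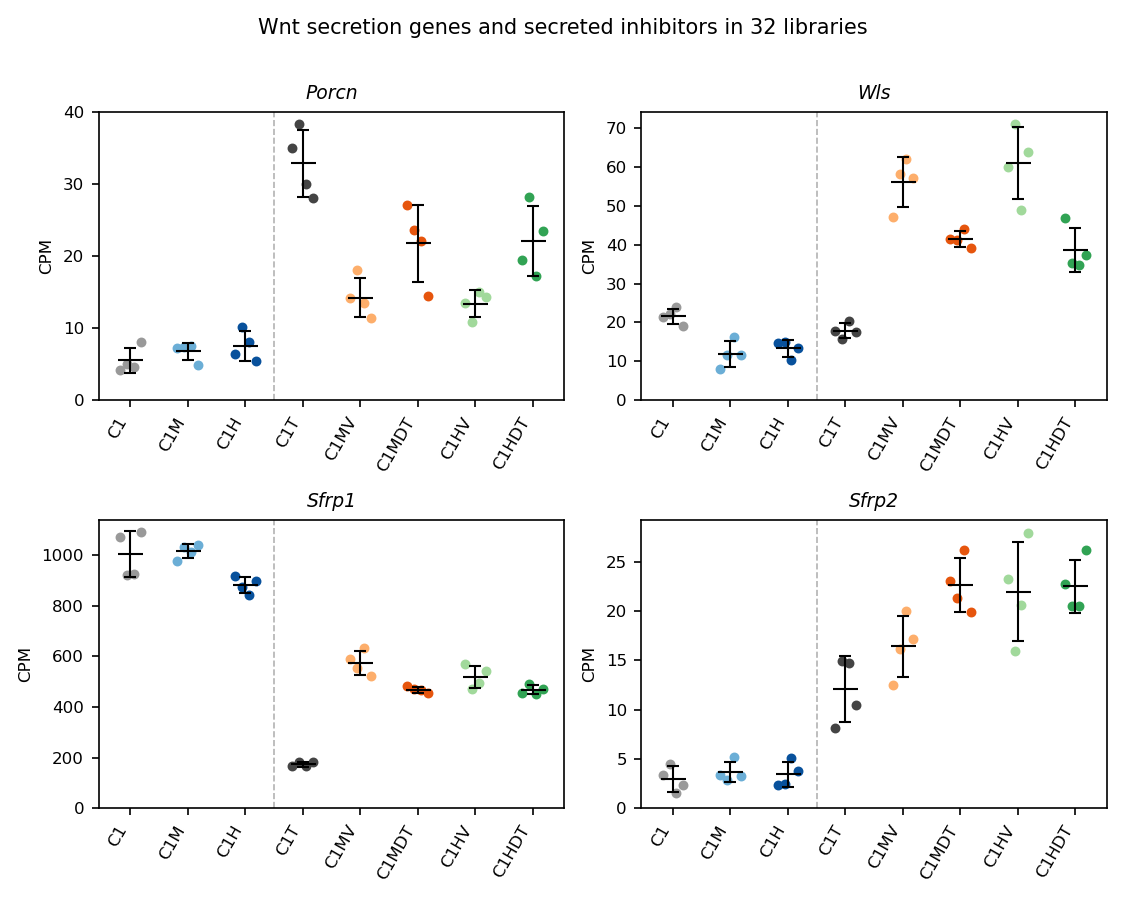
CPM per library of Porcn, Wls, Sfrp1 and Sfrp2 in the 8 groups (points, with the mean and SD of 4 libraries); the dashed line divides day 0 from day 4. Wls averages 17.9 CPM in C1T and is at 34.8 or more in each library of the induced arms, whereas Porcn is highest and Sfrp1 lowest in C1T.

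Of the 10 Frizzled receptors, 8 were called in at least 1 comparison, Fzd1 among them (background 85.3%). Fzd2 rose most. It had 4.19, 0.566, 1.04 and 1.44 CPM in C1, 4.24, 4.25, 7.49 and 6.19 in C1M and 3.41, 6.27, 5.49 and 5.04 in C1H, and C1M lay above every C1 library, while C1 replicate 1 reached the range of C1H. At day 4 it had 35.01, 34.5, 46.2 and 35.9 CPM in C1T, 44.3, 41.6, 35.6 and 28.5 in C1MV and 45.5, 46.1, 54.7 and 41.3 in C1MDT. In C1HV it had 38.2, 31.3, 37.4 and 57.2 CPM and in C1HDT 49.6, 46.8, 37.3 and 48.7. The day 4 groups overlapped each other and lay far above day 0. The log2 fold change over differentiation was 4.24 (SE 0.28, edgeR FDR = 5.91e-30) in C1T, 2.76 (SE 0.21, edgeR FDR = 6.37e-25) in C1MV, 3.06 (SE 0.20, edgeR FDR = 2.23e-30) in C1MDT, 3.17 (SE 0.20, edgeR FDR = 6.39e-31) in C1HDT and 2.99 (SE 0.22, edgeR FDR = 9.39e-27) in C1HV. At day 0 it was higher than in C1 with log2 fold change 1.50 (SE 0.40, edgeR FDR = 0.00188) in C1M and 1.34 (SE 0.40, edgeR FDR = 0.00708) in C1H. Without C1 replicate 1 the fitted log2 fold change of Fzd2 in C1M vs C1 was 2.37 in place of 1.50 (edgeR FDR = 1.29e-04). Without C1 replicate 1 the fitted log2 fold change of Fzd2 in C1H vs C1 was 2.22 in place of 1.34 (edgeR FDR = 4.70e-04). Without C1 replicate 1 the fitted log2 fold change of Fzd2 in C1T vs C1 was 5.12 in place of 4.24 (edgeR FDR = 8.42e-29).

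Fzd7, the Frizzled most studied in pluripotent cells, rose with it. C1 libraries had 20.6, 24.3, 19.2 and 25.4 CPM, C1M 18.2, 16.3, 21.2 and 14.8 and C1H 14.6, 17.4, 13.2 and 11.3, and C1H lay below all of C1. C1T had 79.1, 74.1, 71.0 and 66.5 CPM, C1MV 54.0, 57.0, 49.4 and 81.3 and C1HV 68.2, 68.8, 60.2 and 72.2. With drugs C1MDT had 58.2, 48.3, 46.0 and 41.6 CPM and C1HDT 54.4, 46.8, 53.6 and 38.5, both below every C1T library. Fzd7 was lower in C1H than in C1 with log2 fold change -0.64 (SE 0.18, edgeR FDR = 0.00388), and over differentiation rose with log2 fold change 1.71 (SE 0.15, edgeR FDR = 4.22e-21) in C1T, 1.72 (SE 0.15, edgeR FDR = 4.49e-21) in C1MV, 1.43 (SE 0.15, edgeR FDR = 5.34e-16) in C1MDT, 1.75 (SE 0.15, edgeR FDR = 1.38e-20) in C1HDT and 2.23 (SE 0.15, edgeR FDR = 1.80e-28) in C1HV. Against C1T it was -0.61 (SE 0.13, edgeR FDR = 3.36e-05) in C1MDT, -0.60 (SE 0.13, edgeR FDR = 4.66e-05) in C1HDT and -0.31 (SE 0.13, edgeR FDR = 0.0493) in C1MV, and C1HDT was lower than C1HV with log2 fold change -0.47 (SE 0.13, edgeR FDR = 0.00421). For Fzd7, C1MV vs C1T lost its call without any 1 of C1T replicates 1, 2 and 3 and C1MV replicates 1, 2 and 3 (edgeR FDR 0.0756 to 0.238). Fzd7 in C1MV vs C1T was not called with scaling by library size (edgeR FDR = 0.125), DESeq2 (FDR = 0.0718), no filter on low counts (edgeR FDR = 0.0723) and the replicate block (edgeR FDR = 0.0546). For Fzd7, C1HDT vs C1HV lost its call without C1HDT replicate 4 (edgeR FDR = 0.0502).

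Fzd5, which is known to transduce through β-catenin, moved the other way. It had 47.4, 49.8, 50.3 and 50.7 CPM in C1, 56.4, 60.3, 53.1 and 59.4 in C1M and 67.4, 64.8, 62.6 and 63.9 in C1H, both fractions above all C1 libraries (log2 fold change 0.39 [SE 0.12, edgeR FDR = 0.0106] in C1H and 0.21 [SE 0.12, edgeR FDR = 0.213], not called, in C1M). At day 4 it had 24.0, 27.5, 25.7 and 24.8 CPM in C1T, 43.5, 37.1, 38.5 and 42.8 in C1MV and 33.6, 40.9, 33.5 and 44.2 in C1HV, and with drugs 27.1, 28.7, 33.2 and 31.6 in C1MDT and 33.3, 27.7, 20.1 and 27.2 in C1HDT. Each day 4 group lay below its day 0 group, and the arms without drugs lay above C1T. From day 0 to day 4 the log2 fold change was -0.95 (SE 0.14, edgeR FDR = 5.37e-09) in C1T, -0.51 (SE 0.13, edgeR FDR = 3.42e-04) in C1MV, -0.78 (SE 0.13, edgeR FDR = 8.45e-08) in C1HV, -1.24 (SE 0.13, edgeR FDR = 1.82e-16) in C1HDT and -0.91 (SE 0.13, edgeR FDR = 3.31e-10) in C1MDT. Against C1T it was 0.65 (SE 0.15, edgeR FDR = 1.40e-04) in C1MV and 0.56 (SE 0.15, edgeR FDR = 0.00228) in C1HV. The drugs went with lower Fzd5, with log2 fold change -0.40 (SE 0.14, edgeR FDR = 0.0349) in the middle and -0.46 (SE 0.14, edgeR FDR = 0.0151) in the high fraction. For Fzd5, C1MDT vs C1MV lost its call without any 1 of C1MV replicates 1, 3 and 4 and C1MDT replicates 1, 2 and 4 (edgeR FDR 0.0543 to 0.117). Fzd5 in C1MDT vs C1MV was not called with no filter on low counts (edgeR FDR = 0.0530) and a fit of only the groups compared (edgeR FDR = 0.0591). For Fzd5, C1HDT vs C1HV lost its call without any 1 of C1HV replicates 2 and 4 and C1HDT replicate 3 (edgeR FDR 0.0619 to 0.115).

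**Figure D3:**
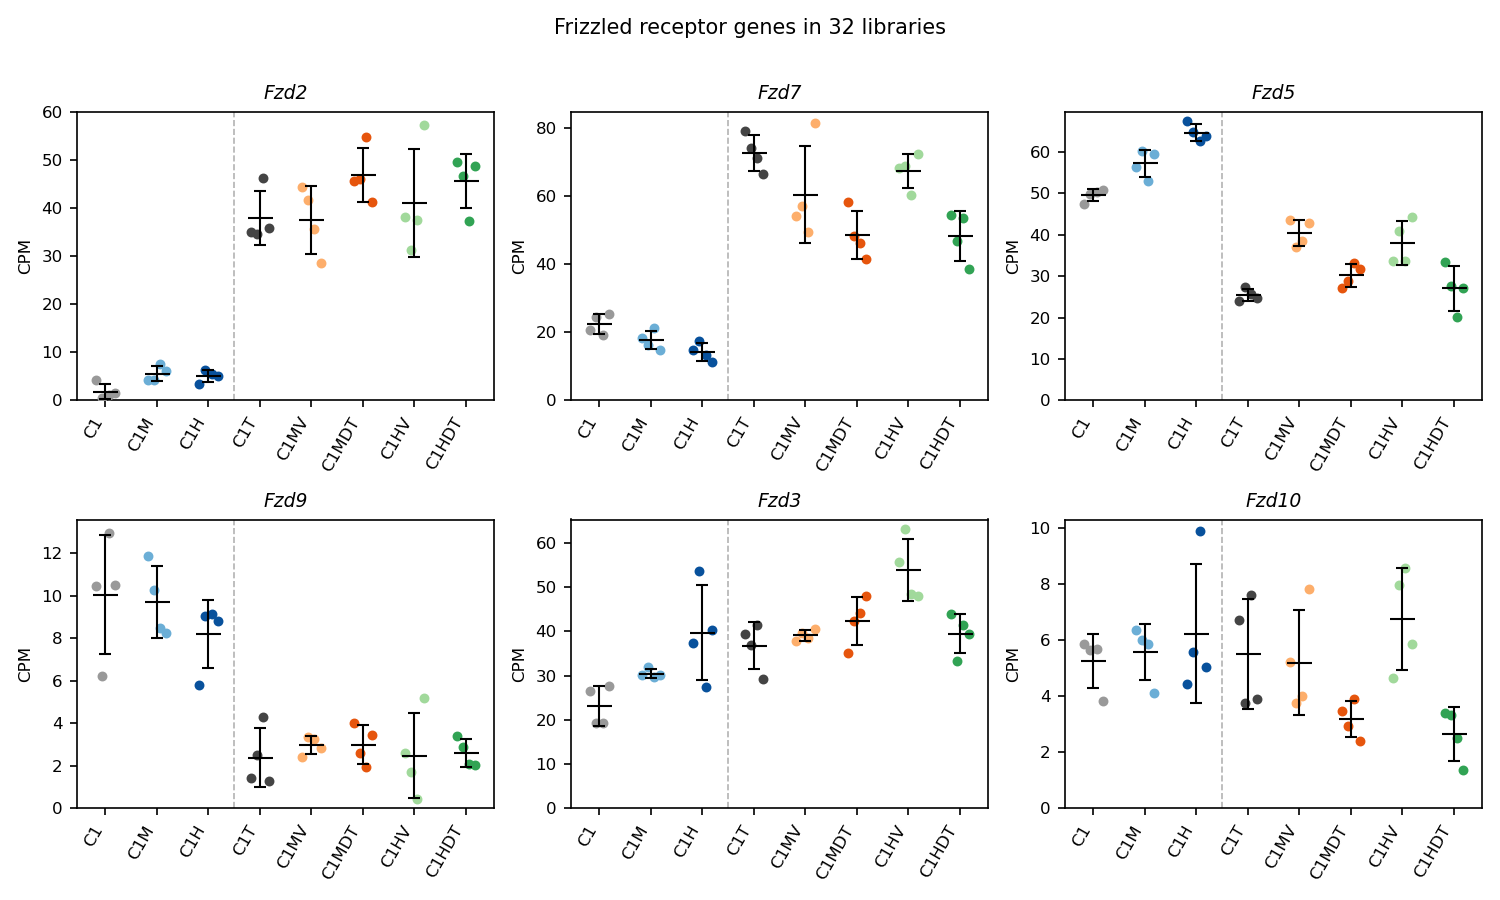
CPM per library of Fzd2, Fzd7, Fzd5, Fzd9, Fzd3 and Fzd10 (points, with the mean and SD of 4 libraries) in the 8 groups. The dashed line divides day 0 from day 4. Fzd2 and Fzd7 step up and Fzd5 and Fzd9 step down between the days, and Fzd10 is lowest in C1HDT at 2.65 ± 0.952 CPM.

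Fzd9, a receptor best known from brain and bone, had 10.5, 6.22, 13.0 and 10.5 CPM in C1, 11.9, 10.3, 8.47 and 8.25 in C1M and 5.79, 9.06, 9.16 and 8.82 in C1H. At day 4 it had 1.44, 2.50, 4.29 and 1.30 CPM in C1T, 2.42, 3.37, 3.27 and 2.85 in C1MV, 4.04, 2.58, 1.95 and 3.44 in C1MDT, 2.58, 1.71, 0.430 and 5.20 in C1HV and 3.40, 2.86, 2.09 and 2.04 in C1HDT. No day 4 library reached its day 0 group, and the day 4 groups overlapped. For Fzd9 the log2 fold change was -2.02 (SE 0.38, edgeR FDR = 2.08e-06) in C1T, -1.67 (SE 0.35, edgeR FDR = 1.97e-05) in C1MV, -1.74 (SE 0.34, edgeR FDR = 4.03e-06) in C1MDT, -1.63 (SE 0.35, edgeR FDR = 3.18e-05) in C1HDT and -1.82 (SE 0.40, edgeR FDR = 4.50e-05) in C1HV, and each of these calls held without any 1 library. Fzd10 had 5.87, 5.66, 5.71 and 3.83 CPM in C1, 6.36, 6.03, 5.86 and 4.12 in C1M, 4.43, 5.58, 9.89 and 5.04 in C1H and 6.71, 3.75, 7.62 and 3.91 in C1T. It had 5.24, 3.75, 4.00 and 7.84 CPM in C1MV and 4.65, 7.96, 8.60 and 5.85 in C1HV, against 3.46, 2.95, 3.91 and 2.41 in C1MDT and 3.40, 3.34, 2.51 and 1.36 in C1HDT. C1HDT lay below C1HV, C1T and C1H without overlap (log2 fold change -1.37 [SE 0.38, edgeR FDR = 0.00557], -1.07 [SE 0.39, edgeR FDR = 0.0256] and -1.24 [SE 0.37, edgeR FDR = 0.00242]). C1MDT was lower than C1M with log2 fold change -0.80 (SE 0.36, edgeR FDR = 0.0495). For Fzd10, C1MDT vs C1M lost its call without any 1 of C1M replicates 1, 2 and 3 and C1MDT replicates 1, 2 and 4 (edgeR FDR 0.0596 to 0.144). Fzd10 in C1MDT vs C1M was not called with DESeq2 (FDR = 0.0584), no filter on low counts (edgeR FDR = 0.0705) and a fit of only the groups compared (edgeR FDR = 0.0696). For Fzd10, C1HDT vs C1T lost its call without any 1 of C1T replicates 1 and 3 and C1HDT replicate 4 (edgeR FDR 0.0840 to 0.130).

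The remaining Frizzled genes are given by their ranges. Fzd3, known from axon guidance, was 19.2 to 27.8 CPM in C1 and 27.5 to 53.7 in C1H at day 0 (log2 fold change 0.76, SE 0.16, edgeR FDR = 3.47e-05). Over differentiation it was higher in C1T with log2 fold change 0.67 (SE 0.16, edgeR FDR = 2.56e-04), in C1MV with 0.36 (SE 0.15, edgeR FDR = 0.0346), in C1MDT with 0.50 (SE 0.14, edgeR FDR = 0.00165) and in C1HV with 0.44 (SE 0.14, edgeR FDR = 0.00554), but not in C1HDT (-0.00, SE 0.14, edgeR FDR = 0.997). C1HV was above C1T with log2 fold change 0.53 (SE 0.14, edgeR FDR = 0.00204) and C1HDT below C1HV with -0.44 (SE 0.14, edgeR FDR = 0.0177). Fzd4, which also serves the ligand Norrin in vessels, was 7.36 to 13.4 CPM in C1 and 12.0 to 19.2 in C1M (log2 fold change 0.61, SE 0.24, edgeR FDR = 0.0463), and lower over differentiation in C1MV with log2 fold change -0.80 (SE 0.24, edgeR FDR = 0.00361), in C1MDT with -0.68 (SE 0.23, edgeR FDR = 0.00829) and in C1HDT with -0.75 (SE 0.24, edgeR FDR = 0.00409). Fzd1, tested only through C1M, was called only in C1MDT against C1M, where C1MDT was at the floor and no fold is given, with 0.709 to 1.63 CPM in C1M and 0 to 0.368 in C1MDT. Fzd6 (0 to 6.22 CPM) and Fzd8 (0 to 5.54 CPM) passed in no comparison. For Fzd3, C1MV vs C1M lost its call without any 1 of C1M replicates 1, 3 and 4 and C1MV replicates 2 and 4 (edgeR FDR 0.0540 to 0.0700). Fzd3 in C1MV vs C1M was not called with scaling by library size (edgeR FDR = 0.0544), DESeq2 (FDR = 0.0605) and no filter on low counts (edgeR FDR = 0.0509). For Fzd3, C1HV vs C1H lost its call without C1H replicate 3 (edgeR FDR = 0.0842). For Fzd3, C1HDT vs C1HV lost its call without any 1 of C1HV replicate 2 and C1HDT replicate 2 (edgeR FDR 0.0771 to 0.115). For Fzd4, C1M vs C1 lost its call without any 1 of C1 replicates 1, 2 and 3 and C1M replicates 1, 2 and 3 (edgeR FDR 0.0527 to 0.177). Fzd4 in C1M vs C1 was not called with DESeq2 (FDR = 0.0692) and no filter on low counts (edgeR FDR = 0.0536). For Fzd4, C1MDT vs C1M lost its call without any 1 of C1M replicate 3 and C1MDT replicate 3 (edgeR FDR 0.0582 to 0.0583). For Fzd1, C1MDT vs C1M lost its call without any 1 of C1M replicates 3 and 4 and C1MDT replicates 1 and 3 (edgeR FDR 0.0671 to 0.143). Fzd1 in C1MDT vs C1M was not called with DESeq2 (FDR = 0.0868) and no filter on low counts (edgeR FDR = 0.0657).

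As shares of all Frizzled reads, Fzd2 and Fzd7 together made up 18.8% ± 1.37 (SD, n = 4) in C1, 15.5% ± 2.02 in C1M and 12.0% ± 1.29 in C1H. At day 4 they made up 56.5% ± 1.69 in C1T, 48.9% ± 1.91 in C1MV, 50.1% ± 4.11 in C1MDT, 52.4% ± 1.75 in C1HDT and 47.8% ± 4.09 in C1HV. Fzd5 went from 38.8% ± 3.47 in C1, 38.6% ± 3.28 in C1M and 40.8% ± 3.23 in C1H to 13.1% ± 1.24 in C1T and 20.3% ± 1.44 in C1MV, with C1MDT, C1HV and C1HDT between these. Reads are not scaled to transcript length, so the shares are compared across groups and not read as an order of the receptors.

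**Figure D4:**
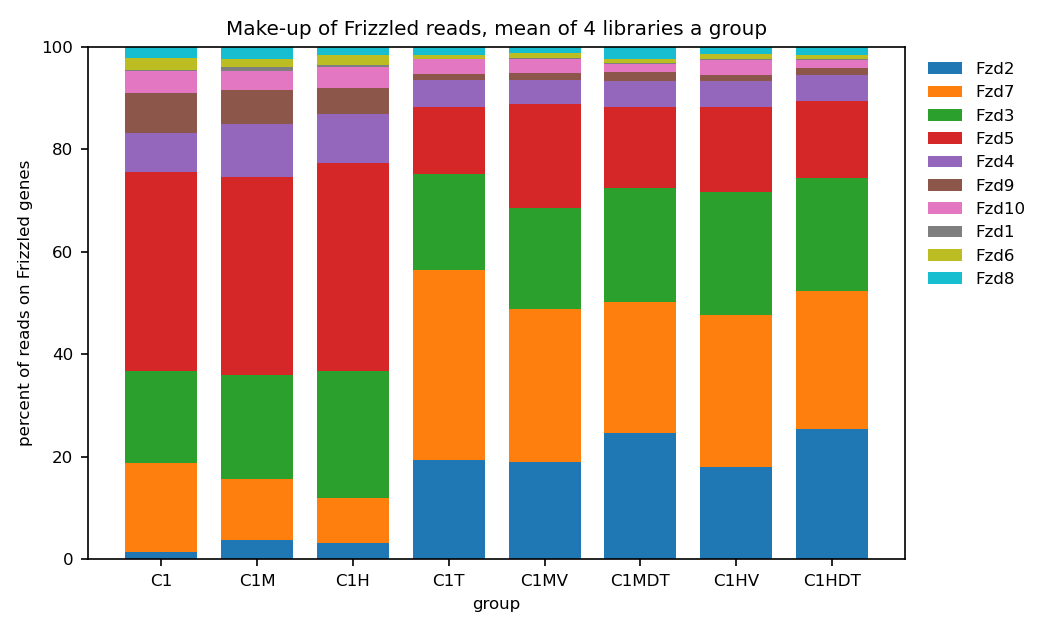
Stacked bars of each Frizzled gene's mean percent of all Frizzled reads in the 8 groups (4 libraries each). The part held by Fzd2 and Fzd7 is under 20% in the 3 day 0 groups and above 47% in the 5 day 4 groups, and that of Fzd5 shrinks.

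Among the co-receptors, Lrp6, the main partner of Frizzled in the β-catenin branch, fell in every arm, from 55.4 to 82.9 CPM over the day 0 libraries to 35.2 to 51.7 over those of day 4. The log2 fold change was -0.51 (SE 0.13, edgeR FDR = 4.35e-04) in C1T, -0.52 (SE 0.12, edgeR FDR = 1.80e-04) in C1MV, -0.46 (SE 0.12, edgeR FDR = 6.06e-04) in C1MDT, -0.85 (SE 0.12, edgeR FDR = 4.79e-10) in C1HDT and -0.75 (SE 0.13, edgeR FDR = 1.30e-07) in C1HV, and each call held without any 1 library. Its relative Lrp5 had 11.5, 11.7, 16.6 and 11.6 CPM in C1M, 8.46, 7.87, 8.36 and 10.7 in C1MV and 6.92, 5.16, 5.86 and 7.22 in C1MDT. Both arms lay below C1M (log2 fold change -0.58 [SE 0.24, edgeR FDR = 0.0424] and -1.05 [SE 0.25, edgeR FDR = 1.69e-04]). In the other groups Lrp5 had 9.65, 13.0, 13.5 and 10.5 CPM in C1 and 8.63, 8.32, 8.10 and 7.18 in C1T, and 11.6, 13.2, 8.79 and 10.5 in C1H, 7.75, 11.9, 10.7 and 10.4 in C1HV and 7.48, 11.4, 8.37 and 5.10 in C1HDT. C1T lay below C1, but C1T against C1 was not called (-0.51, SE 0.27, edgeR FDR = 0.107), nor was either C1H arm, although C1HDT against C1H was called with scaling by library size (edgeR FDR = 0.0468) and the stricter filter (edgeR FDR = 0.0466). For Lrp5, C1MV vs C1M lost its call without any 1 of C1M replicate 3 and C1MV replicates 1, 2 and 3 (edgeR FDR 0.0776 to 0.207). Lrp5 in C1MV vs C1M was not called with no filter on low counts (edgeR FDR = 0.0633) and a fit of only the groups compared (edgeR FDR = 0.0544).

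Ror2, a receptor kinase for Wnt5a, had 21.6, 21.6, 20.2 and 20.6 CPM in C1M, 16.1, 12.7, 11.6 and 12.1 in C1MV and 6.92, 9.58, 11.4 and 11.3 in C1MDT. It had 19.4, 22.6, 23.4 and 26.5 CPM in C1H, 12.4, 5.69, 10.7 and 14.3 in C1HV and 16.0, 10.0, 16.7 and 12.3 in C1HDT. All 4 arms lay below their day 0 fraction (log2 fold change -0.67 [SE 0.20, edgeR FDR = 0.00353], -1.05 [SE 0.20, edgeR FDR = 3.74e-06], -1.09 [SE 0.21, edgeR FDR = 6.00e-06] and -0.72 [SE 0.19, edgeR FDR = 6.42e-04]). In the arm without induction it had 18.0, 11.9, 20.2 and 18.7 CPM in C1 and 13.4, 13.7, 13.8 and 15.7 in C1T, which overlapped and was not called (-0.30, SE 0.22, edgeR FDR = 0.255). Whether the arms differ was tested, and no interaction for Ror2 passed, although the lowest edgeR FDR were 0.0508 in the C1HV arm and 0.0541 in C1MDT and both fell under 0.05 with scaling by library size, the stricter filter and the replicate block. Its relative Ror1 ran the other way from very low values: C1M and C1H were at the floor, and Ror1 was at least 1.28-fold higher in C1MV, 1.20-fold in C1MDT, 2.49-fold in C1HV and 2.30-fold in C1HDT. C1 had reads only in replicate 1 (2.52 CPM), and C1T had 1.92, 2.50, 2.38 and 3.91 CPM (log2 fold change 1.78, SE 0.74, edgeR FDR = 0.0376). Ryk, an atypical receptor with an inactive kinase domain, had 50.4 to 74.1 CPM at day 0 and 60.3 to 90.4 at day 4 and passed only in C1HV against C1H (log2 fold change 0.32, SE 0.11, edgeR FDR = 0.0146). For Ror1, C1T vs C1 lost its call without any 1 of C1 replicates 2, 3 and 4 and C1T replicates 2 and 4 (edgeR FDR 0.0560 to 0.130). Ror1 in C1T vs C1 was not called with DESeq2 (FDR = 0.0530). Without C1 replicate 1 the fitted log2 fold change of Ror1 in C1T vs C1 was 5.65 in place of 1.78 (edgeR FDR = 3.82e-04). For Ror1, C1MV vs C1M lost its call without C1MV replicate 1 (edgeR FDR = 0.228). Without C1M replicate 3 the fitted log2 fold change of Ror1 in C1MV vs C1M was 4.87 in place of 2.70 (edgeR FDR = 0.00286). For Ror1, C1MDT vs C1M lost its call without C1MDT replicate 4 (edgeR FDR = 0.0568). Without C1M replicate 3 the fitted log2 fold change of Ror1 in C1MDT vs C1M was 4.82 in place of 2.65 (edgeR FDR = 0.00245). Without C1H replicate 1 the fitted log2 fold change of Ror1 in C1HV vs C1H was 5.69 in place of 4.24 (edgeR FDR = 1.09e-04). Without C1H replicate 1 the fitted log2 fold change of Ror1 in C1HDT vs C1H was 5.57 in place of 4.13 (edgeR FDR = 9.06e-05). For Ryk, C1HV vs C1H lost its call without any 1 of C1H replicate 4 and C1HV replicates 3 and 4 (edgeR FDR 0.0755 to 0.108).

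The secreted inhibitors held the member with the largest values, Sfrp1. It had 1072, 923, 927 and 1090.2 CPM in C1, 977, 1033, 1011 and 1037 in C1M and 916, 874, 841 and 896 in C1H. At day 4 C1T had 165, 181, 167 and 182 CPM, against 589.9, 554, 631 and 523 in C1MV, 482, 470.5, 467 and 454 in C1MDT, 568, 472, 494 and 544 in C1HV and 455, 489.9, 453 and 472 in C1HDT. Each induced arm lay between its day 0 group and C1T, and none overlapped either. The log2 fold change over differentiation was -2.53 (SE 0.07, edgeR FDR = 5.12e-69) in C1T, -0.82 (SE 0.07, edgeR FDR = 1.56e-22) in C1MV, -1.12 (SE 0.07, edgeR FDR = 9.92e-34) in C1MDT, -0.92 (SE 0.07, edgeR FDR = 2.51e-26) in C1HDT and -0.76 (SE 0.07, edgeR FDR = 3.74e-20) in C1HV. Against C1T it was 1.73 (SE 0.07, edgeR FDR = 6.02e-48) in C1MV, 1.43 (SE 0.07, edgeR FDR = 2.41e-39) in C1MDT, 1.43 (SE 0.07, edgeR FDR = 2.38e-39) in C1HDT and 1.58 (SE 0.07, edgeR FDR = 2.98e-43) in C1HV. The drugs went with a lower value in the middle fraction (C1MDT against C1MV, log2 -0.30, SE 0.07, edgeR FDR = 5.70e-04). In the high fraction the log2 fold change was -0.15 (SE 0.07, edgeR FDR = 0.127), and it was called with DESeq2 (FDR = 0.0331), scaling by library size (edgeR FDR = 0.0255) and the stricter filter (edgeR FDR = 0.0410). At day 0 C1H was below C1 with log2 fold change -0.19 (SE 0.07, edgeR FDR = 0.0250). For Sfrp1, C1H vs C1 lost its call without any 1 of C1 replicates 1 and 4 and C1H replicates 2 and 3 (edgeR FDR 0.0549 to 0.131). Sfrp1 in C1H vs C1 was not called with scaling by library size (edgeR FDR = 0.213) and no filter on low counts (edgeR FDR = 0.0533).

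Sfrp2 rose where Sfrp1 fell. It had 3.36, 4.53, 1.56 and 2.39 CPM in C1, 3.39, 2.84, 5.21 and 3.30 in C1M and 2.38, 2.44, 5.13 and 3.78 in C1H. At day 4 it had 8.15, 15.0, 14.8 and 10.4 CPM in C1T, 12.5, 16.1, 20.0 and 17.1 in C1MV, 23.1, 21.4, 26.2 and 19.9 in C1MDT, 23.2, 15.9, 20.6 and 27.96 in C1HV and 22.8, 20.5, 20.5 and 26.2 in C1HDT. No day 4 group overlapped its day 0 group, and C1MDT, C1HV and C1HDT lay above every C1T library. For Sfrp2 the log2 fold change was 2.04 (SE 0.32, edgeR FDR = 2.12e-08) in C1T, 2.12 (SE 0.27, edgeR FDR = 8.84e-12) in C1MV, 2.59 (SE 0.25, edgeR FDR = 7.02e-18) in C1MDT, 2.72 (SE 0.26, edgeR FDR = 8.29e-19) in C1HDT and 2.66 (SE 0.27, edgeR FDR = 7.13e-17) in C1HV. Against C1T it was 0.89 (SE 0.21, edgeR FDR = 3.44e-04) in C1MDT, 0.88 (SE 0.21, edgeR FDR = 3.95e-04) in C1HDT and 0.83 (SE 0.22, edgeR FDR = 0.00204) in C1HV, while C1MV did not pass (0.42, SE 0.23, edgeR FDR = 0.162). Each Sfrp2 call held without any 1 library.

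Sfrp5 had 0.839, 1.13, 3.63 and 3.83 CPM in C1, 1.27, 2.84, 2.61 and 3.30 in C1M and 4.43, 5.23, 5.86 and 2.10 in C1H. At day 4 it had 0.480, 1.25, 0.953 and 1.30 CPM in C1T, where it was at the floor, 3.22, 0.750, 2.18 and 1.43 in C1MV and 1.55, 0.569, 4.73 and 1.30 in C1HV. With drugs it had 2.31, 4.79, 6.14 and 1.38 CPM in C1MDT and 0.680, 4.77, 4.19 and 2.72 in C1HDT, at least 2.41-fold and 2.04-fold higher than C1T, though C1HDT overlapped C1T. Frzb, also called Sfrp3, was at the floor in C1T (0 to 0.480 CPM) and at least 1.14-fold higher in C1MDT (0 to 3.32 CPM) and 1.65-fold higher in C1HDT (1.70 to 3.82 CPM). All 4 inhibitors were thus called higher in both arms with drugs than in C1T, where 16.9% of tested genes were higher in C1MDT and 17.4% in C1HDT. Both comparisons share C1T. For Sfrp5, C1MDT vs C1T lost its call without C1MDT replicate 3 (edgeR FDR = 0.0848). For Sfrp5, C1HDT vs C1T lost its call without any 1 of C1T replicates 1, 2, 3 and 4 and C1HDT replicates 2, 3 and 4 (edgeR FDR 0.0550 to 0.153). Sfrp5 in C1HDT vs C1T was not called with RLE size factors (edgeR FDR = 0.0505) and DESeq2 (FDR = 0.0682). Without C1T replicate 1 the fitted log2 fold change of Frzb in C1MDT vs C1T was 5.21 in place of 3.46 (edgeR FDR = 0.00218). Without C1T replicate 1 the fitted log2 fold change of Frzb in C1HDT vs C1T was 5.57 in place of 3.83 (edgeR FDR = 5.78e-04).

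Whether the change over differentiation differed between an induced arm and C1 to C1T was tested with an interaction term, that is the log2 fold change of the arm minus that of C1T against C1. The 4 interactions share the C1 and C1T libraries. Called were 7 members in the C1MV arm (background 22.5%), 6 in C1MDT (24.4%), 6 in C1HV (21.9%) and 6 in C1HDT (25.2%), that is 19.4% to 22.6% of the tested members. Wls and Sfrp1 passed in all 4 arms, in each case without any 1 library. The Wls difference was 2.48 (SE 0.25, edgeR FDR = 8.49e-16) in the C1MV arm, 2.44 (SE 0.25, edgeR FDR = 1.15e-15) in C1HV, 1.81 (SE 0.25, edgeR FDR = 1.12e-09) in C1HDT and 2.04 (SE 0.25, edgeR FDR = 1.35e-11) in C1MDT. For Sfrp1 it was 1.71 (SE 0.10, edgeR FDR = 4.40e-34) in the C1MV arm, 1.77 (SE 0.10, edgeR FDR = 6.56e-35) in C1HV, 1.61 (SE 0.10, edgeR FDR = 1.04e-31) in C1HDT and 1.41 (SE 0.10, edgeR FDR = 1.04e-26) in C1MDT, which is a smaller fall than in C1T. Porcn rose less than in C1T, with differences of -1.49 (SE 0.36, edgeR FDR = 5.83e-04) in the C1MV arm, -1.75 (SE 0.36, edgeR FDR = 4.33e-05) in C1HV, -1.05 (SE 0.34, edgeR FDR = 0.0140) in C1HDT and -0.93 (SE 0.35, edgeR FDR = 0.0371) in C1MDT. The Porcn difference in the C1MDT arm lost its call without any 1 of C1 replicates 1, 2 and 3, C1M replicates 1, 2 and 3, C1T replicates 1 and 2 and C1MDT replicate 4 (edgeR FDR 0.0600 to 0.123). The Porcn difference in the C1HDT arm lost its call without any 1 of C1 replicate 1 and C1H replicate 2 (edgeR FDR 0.0531 to 0.0705).

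Fzd2 rose less than in C1T in 3 arms, with differences of -1.49 (SE 0.43, edgeR FDR = 0.00535) in the C1MV arm, -1.19 (SE 0.43, edgeR FDR = 0.0307) in C1MDT and -1.25 (SE 0.44, edgeR FDR = 0.0273) in C1HV, and not beyond the threshold in C1HDT (-1.08, SE 0.44, edgeR FDR = 0.0566), where it was called with RLE size factors (edgeR FDR = 0.0489), scaling by library size (edgeR FDR = 0.0420) and a fit of only the groups compared (edgeR FDR = 0.0480). At day 4 Fzd2 was called in no induced arm against C1T, with means of 37.5 to 46.9 CPM against 37.9 in C1T. The C1 libraries together held 16 Fzd2 reads, 10 of them in replicate 1. The fitted Fzd2 difference in the C1MV arm was -2.35 without C1 replicate 1, in place of -1.49 (edgeR FDR = 3.64e-04). The Fzd2 difference in the C1MDT arm lost its call without any 1 of C1 replicates 2, 3 and 4, C1M replicates 3 and 4, C1T replicate 3 and C1MDT replicate 4 (edgeR FDR 0.0515 to 0.126). The fitted Fzd2 difference in the C1MDT arm was -2.04 without C1 replicate 1, in place of -1.19 (edgeR FDR = 0.00259). The Fzd2 difference in the C1HV arm lost its call without any 1 of C1 replicates 2, 3 and 4, C1H replicate 2 and C1T replicate 3 (edgeR FDR 0.0581 to 0.106). The fitted Fzd2 difference in the C1HV arm was -2.12 without C1 replicate 1, in place of -1.25 (edgeR FDR = 0.00211). Fzd3 differed in the C1HDT arm, by -0.67 (SE 0.21, edgeR FDR = 0.0122). The Fzd3 difference in the C1HDT arm lost its call without C1H replicate 2 (edgeR FDR = 0.0979). For Wnt3, Wnt5a and Wnt7b a group at the floor enters, so the fitted differences depend on the prior count and give a direction only: Wnt3 was negative in all 4 arms, Wnt5a in C1MV and C1HV, and Wnt7b positive in C1MV, C1MDT and C1HDT. The fitted Wnt3 difference in the C1MV arm was -4.95 without C1 replicate 4, in place of -4.00 (edgeR FDR = 4.45e-04). The fitted Wnt3 difference in the C1MDT arm was -4.09 without C1 replicate 4, in place of -3.13 (edgeR FDR = 0.00384). The Wnt3 difference in the C1HV arm lost its call without C1 replicate 1 (edgeR FDR = 0.0641). The fitted Wnt3 difference in the C1HV arm was -4.00 without C1 replicate 4, in place of -3.05 (edgeR FDR = 0.00951). The Wnt3 difference in the C1HDT arm lost its call without any 1 of C1 replicates 1 and 2, C1H replicates 2, 3 and 4, C1T replicates 1 and 3 and C1HDT replicates 2 and 4 (edgeR FDR 0.0513 to 0.120). The difference of Wnt3 in the C1HDT arm was not called with DESeq2 (FDR = 0.0555) and no filter on low counts (edgeR FDR = 0.0604). The fitted Wnt3 difference in the C1HDT arm was -3.53 without C1 replicate 4, in place of -2.58 (edgeR FDR = 0.0201). The Wnt5a difference in the C1MV arm lost its call without any 1 of C1 replicates 1 and 4, C1M replicate 2 and C1T replicate 3 (edgeR FDR 0.0509 to 0.105). The Wnt5a difference in the C1HV arm lost its call without any 1 of C1 replicates 1, 2, 3 and 4, C1H replicates 1 and 3, C1T replicates 3 and 4 and C1HV replicates 2 and 3 (edgeR FDR 0.0556 to 0.168). The difference of Wnt5a in the C1HV arm was not called with DESeq2 (FDR = 0.0802), no filter on low counts (edgeR FDR = 0.0548) and the replicate block (edgeR FDR = 0.0537). The Wnt7b difference in the C1MV arm lost its call without any 1 of C1 replicate 3, C1T replicates 2 and 4 and C1MV replicates 3 and 4 (edgeR FDR 0.0558 to 0.0954). The difference of Wnt7b in the C1MV arm was not called with DESeq2 (FDR = 0.0543). The Wnt7b difference in the C1MDT arm lost its call without C1MDT replicate 3 (edgeR FDR = 0.0897). The Wnt7b difference in the C1HDT arm lost its call without any 1 of C1 replicate 3, C1H replicates 1 and 3, C1T replicates 2 and 4 and C1HDT replicate 4 (edgeR FDR 0.0555 to 0.122). The difference of Wnt7b in the C1HDT arm was not called with DESeq2 (FDR = 0.0741).

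Whether keeping the drugs acted differently in the high and the middle fraction was tested in the same way, and edgeR called no member (background 0%), 3 had an unadjusted p under 0.05 and DESeq2 called none. Wls is an example, with a difference of -0.21 (SE 0.19, edgeR FDR = 0.838).

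**Figure D5:**
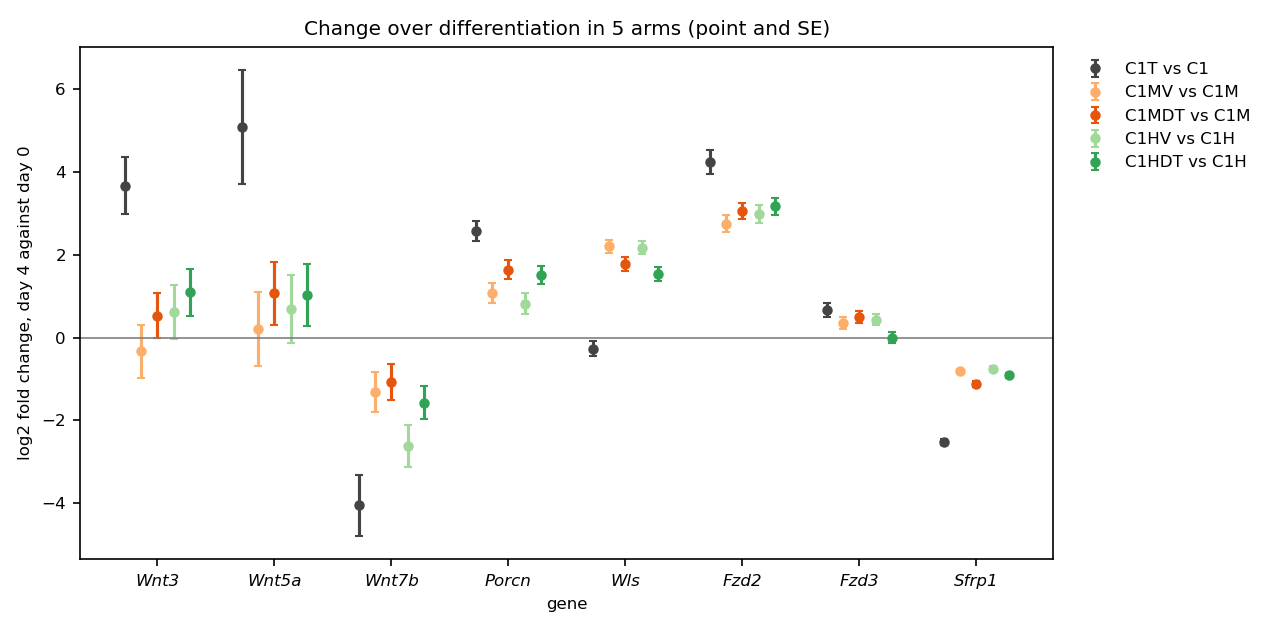
Log2 fold change over differentiation (points, with SE) from edgeR for Wnt3, Wnt5a, Wnt7b, Porcn, Wls, Fzd2, Fzd3 and Sfrp1, the members with a called interaction, in the 5 arms. Wls lies near 0 in C1T and above 1.5 in every induced arm, and Sfrp1 is at -2.53 in C1T and between -1.12 and -0.76 in the others. The values of Wnt3, Wnt5a and Wnt7b rest on groups at the floor.

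The neighbouring parts of the pathway were counted on lists given by role. Of 16 other extracellular antagonists 10 were tested. Dkk1, which blocks Lrp5 and Lrp6, was called higher than in C1T in all 4 induced arms, with 0.360 ± 0.719 CPM (SD, n = 4) in C1T, 3.76 ± 1.15 in C1MV, 5.69 ± 2.17 in C1MDT, 6.61 ± 2.66 in C1HDT and 4.85 ± 0.795 in C1HV. Notum, an enzyme that removes the lipid of Wnt ligands, was lower in C1MDT, C1HV and C1HDT, all at the floor, than in C1T (2.36 ± 1.99 CPM), and lower in C1M and C1H than in C1 (4.06 ± 3.05 CPM). At day 0 Kremen1 and Dkk3 were called higher and Igfbp4 lower in C1M, and Wif1, Kremen1 and Dkk3 higher in C1H, than in C1. Dkk3 was higher in C1HV and C1HDT than in C1T, while Shisa2 was lower in C1MDT and C1HDT and Shisa3, with at most a few reads per library, in C1HV. In C1T against C1 Igfbp4 alone passed, next to 49.2% of all tested genes, and it rose with log2 fold change 0.44 (SE 0.16, edgeR FDR = 0.0143). Igfbp4 and Dkk1 were also called higher over differentiation in all 4 induced arms. Lower there were Sfrp4, Dkk3, Kremen2 and Shisa2 in C1MV, Wif1, Dkk3 and Shisa2 in C1MDT, and Wif1, Notum and Shisa2 in C1HDT. Of all tested genes 45.8% to 55.7% were called in these arms, 26.3% and 25.9% at day 0 and 28% to 33.5% against C1T.

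R-spondins act through Lgr receptors to keep Frizzled at the surface, against ubiquitin ligases such as Znrf3 that remove it, and 7 of 9 such genes were tested. In C1T against C1 Rspo1 and Lgr4 rose and Rspo2 fell, 3 calls of 7 next to 49.2% of all tested genes. Over differentiation Lgr4 was also higher in all 4 induced arms and Rspo2 lower in each but C1MV, Znrf3 was lower in C1MDT and C1HDT, Lgr6 lower in C1MDT and Rspo4 higher in C1MV. Rspo1 was lower in C1MV than in C1T. All 10 genes around Dishevelled, the first relay inside the cell, were tested. Against C1T, 4 were higher and 2 lower in C1MV, 5 and 1 in C1MDT, 4 and 1 in C1HV and 6 and 1 in C1HDT, next to 30.2%, 33.4%, 28% and 33.5% of all tested genes called. Dab2, an adaptor that binds Dishevelled and is also one of the 6 endoderm markers, went from 11.2 ± 3.44 CPM in C1T to 233 ± 52.7 in C1MV and 448 ± 50.8 in C1MDT. Csnk1e, a kinase of Dishevelled, was higher than in C1T in all 4 arms (log2 fold change 0.70, SE 0.09, edgeR FDR = 2.40e-12 in C1MV), and Caprin2, which takes part in Lrp6 activation, was lower in all 4 (-0.54, SE 0.13, edgeR FDR = 5.58e-04 in C1MV).

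All 10 genes of the planar cell polarity core, the branch served by Ror2 and Ryk, were tested. Against C1 3 rose in C1T (Ptk7, Vangl2 and Ankrd6) and 4 fell (Celsr1, Vangl1, Prickle2 and Prickle3), next to 49.2% of all tested genes called. Ptk7, Vangl2, Ankrd6 and also Vangl1 were called higher over differentiation in all 4 induced arms. Celsr1, Prickle2 and Prickle3 were lower in all 4, and Celsr2 and Celsr3 in each but C1MDT. In these arms 45.8% to 55.7% of all tested genes were called. Against C1T 4, 3, 3 and 3 of the 10 were called in C1MV, C1MDT, C1HV and C1HDT, next to the shares of all tested genes called that are given above: Vangl1 was higher in each arm but C1HV, Celsr3 lower in C1MV and C1HV, and Ptk7 and Ankrd6 lower in all 4, Ptk7 with log2 fold change -1.23 (SE 0.20, edgeR FDR = 7.02e-07) in C1MV and -1.30 (SE 0.20, edgeR FDR = 1.21e-07) in C1HDT. Of the 6 glypicans, proteoglycans that hold Wnt ligands at the surface, 5 were tested, and Gpc3 was higher than in C1T in all 4 induced arms, with 4.42 ± 1.83 CPM in C1T, 14.4 ± 3.51 in C1MV and 25.4 ± 0.974 in C1MDT. Gpc1 was higher in C1MV, C1MDT and C1HDT. Of 11 TCF/LEF genes and feedback targets 9 were tested. Lef1, a transcription factor partner of β-catenin, had 2.50 ± 0.774 CPM in C1, 269.9 ± 19.6 in C1T, 76.7 ± 9.94 in C1MV and 81.2 ± 18.1 in C1HV, and 132 ± 1.50 in C1MDT and 114 ± 6.16 in C1HDT. It was called lower than in C1T in all 4 arms (log2 fold change -1.80, SE 0.10, edgeR FDR = 1.33e-32 in C1MV), and higher with drugs than without (log2 0.77 [SE 0.11, edgeR FDR = 5.51e-09] in the middle and 0.51 [SE 0.11, edgeR FDR = 1.99e-04] in the high fraction). Axin2, Nkd1 and Nkd2, which limit the pathway, rose with Lef1 in C1T against C1, while Cdx1 and Tcf7l2 fell, 6 calls of 9 next to 49.2% of all tested genes. Lef1 was likewise called higher and Cdx1 and Tcf7l2 lower over differentiation in all 4 induced arms, Axin2 higher in C1HV and Nkd1 lower in C1HDT. Tcf7 was also higher in C1MV, C1MDT and C1HDT, and Tcf7l1 in C1MDT, C1HV and C1HDT, over differentiation. Against C1T, Tcf7l1 was lower in C1MV and C1HDT. At day 0 Nkd2 was higher and Tcf7l1 lower in C1M and C1H than in C1, and Nkd1 was higher in C1H. The shares of all tested genes called in these comparisons are given above.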

How the data were processed

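The authors used bbduk for trimming, STAR for alignment to mm10 and htseq-count for counting unique alignments; the strand setting is not given in the sources used here. The deposited values are whole-number counts, 1 table per library, with 31053 genes each. Reads outside genes stayed out of totals. Genes were named and placed with GENCODE annotation of GRCm38, the build called mm10.

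Counts were scaled by TMM and tested with edgeR 4.0.16 (R 4.3.3, quasi-likelihood, robust) in one fit of all 32 libraries in 8 groups, over the 15280 genes that reached 1 CPM in 4 or more libraries. Benjamini-Hochberg adjustment ran over all of these, and an FDR under 0.05 was called. The p-values measure the spread between libraries, and replicates of a group differed by more than sampling noise (chi-square per degree of freedom 1.55 to 4.62). On simulated counts for C1M against C1 edgeR recovered 89% of genes changed by log2 1 and 99% of those changed by log2 2, with 5.53% false among the calls, and for the interaction of the C1HDT arm 68% and 99%, with 2.91% false and 2 calls where no gene was changed. The genes changed in the simulation were drawn only from those above a limit on mean CPM. No tested ligand reached that limit, nor did Fzd1, Fzd6, Fzd8, Ror1, Frzb or Sfrp5, so these rates do not cover them. DESeq2 1.42.0 was an alternative. The members and lists were chosen with earlier results of these data known. Members called at least once are named. Those with a called log2 fold change over 1 and a mean of at least 2 CPM are given library by library. Same-numbered libraries did not deviate together (mean correlation -0.00169, against 0.000565 for other pairs), so the numbers were not taken as pairs. Protein sequences were not used here.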

Additional observations from a re-analysis of the deposited data

Results flagged for a closer look

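Among the 20 members with a mean of at least 2 CPM, 160 groups of 4 libraries were looked at, and in 7 the gap between the highest or lowest library and its nearest neighbour exceeded Dixon's critical value. Chance gives such a gap in about 1 of 20 groups. Porcn had 4.95 CPM in C1M replicate 4 and 7.21 to 7.49 in the other C1M libraries. Fzd2 had 46.2 CPM in C1T replicate 3 and 34.5 to 35.9 in the other C1T libraries. Fzd6 had 0.355 CPM in C1M replicate 2 and 2.89 to 3.39 in the other C1M libraries. Fzd9 had 5.79 CPM in C1H replicate 1 and 8.82 to 9.16 in the other C1H libraries. Fzd10 had 3.83 CPM in C1 replicate 4 and 5.66 to 5.87 in the other C1 libraries. Lrp5 had 16.6 CPM in C1M replicate 3 and 11.5 to 11.7 in the other C1M libraries. Lrp6 had 37.04 CPM in C1T replicate 2 and 45.7 to 47.0 in the other C1T libraries.

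The change over differentiation in an induced arm differed from that of C1 to C1T in 25 tests of the difference itself, over 8 members, always with 4 libraries in each of the 4 groups. All values are log2 fold changes of the arm minus that of C1T against C1, and the 4 arms share the C1 and C1T libraries; their errors stand beside the values above. The Wnt3 difference was -4.00 in C1MV, -3.13 in C1MDT, -2.58 in C1HDT and -3.05 in C1HV. The Wnt5a difference was -4.88 in C1MV and -4.39 in C1HV. The Wnt7b difference was 2.74 in C1MV, 2.98 in C1MDT and 2.48 in C1HDT. The Wls difference was 2.48 in C1MV, 2.04 in C1MDT, 1.81 in C1HDT and 2.44 in C1HV. The Porcn difference was -1.49 in C1MV, -0.93 in C1MDT, -1.05 in C1HDT and -1.75 in C1HV. The Sfrp1 difference was 1.71 in C1MV, 1.41 in C1MDT, 1.61 in C1HDT and 1.77 in C1HV. The Fzd2 difference was -1.49 in C1MV, -1.19 in C1MDT and -1.25 in C1HV. The Fzd3 difference was -0.67 in C1HDT. Those of Wnt3, Wnt5a and Wnt7b involve groups at the floor and depend on the prior count.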

How the results depend on the processing

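Of 161 calls on members, none changed direction under any alternative, and 1026 of 1068 values from the alternatives that kept all libraries stayed past the threshold. Those lost, 42 values in 18 calls, came mostly from DESeq2 (15 of 161) and from testing without a filter on low counts (13). Scaling by library size lost 5, the fit of only the groups compared 4 and RLE size factors 1. The same alternatives added 32 values in 19 comparisons of a member, 9 of them with scaling by library size, such as Fzd10 in the C1HDT interaction (edgeR FDR = 0.0502 as reported, called with RLE, library size and the stricter filter); the count of members in that interaction rose from 6 to 8 with RLE or library size and was 4 with DESeq2. Requiring at least 1 CPM in all libraries left 13 members to test, lost none of the 102 calls that could be followed, and gave counts of 5 in C1H against C1, 7 in C1T against C1, 11 in C1MV against C1M, 10 in C1HV against C1H, 5 in C1MDT against C1T, 6 in C1HDT against C1T and 3 in the interaction of the C1MV arm. C1H against C1M gave 1 call with DESeq2 and 1 in the fit of only the groups compared, and C1MDT against C1MV gave 2 with no filter. With the replicate number as a block (replicate block), counts of called members ran 3, 7 and 0 at day 0 (C1M and C1H against C1, C1H against C1M), 14, 17, 17, 16 and 16 over differentiation (C1T, C1MV, C1MDT, C1HV, C1HDT), 6, 10, 8 and 9 against C1T (C1MV, C1MDT, C1HV, C1HDT), 4 and 6 for the drugs, and 7, 7, 6 and 6 for the interactions; 4 calls were lost and the numbers are not pairs. Without 1 library at a time, the counts were 2 to 5 (C1M vs C1), 5 to 7 (C1H vs C1), 0 to 1 (C1H vs C1M), 13 to 14 (C1T vs C1), 14 to 17 (C1MV vs C1M), 13 to 16 (C1MDT vs C1M), 15 to 17 (C1HV vs C1H), 15 to 17 (C1HDT vs C1H), 5 to 7 (C1MV vs C1T), 7 to 10 (C1MDT vs C1T), 7 to 9 (C1HV vs C1T), 7 to 9 (C1HDT vs C1T), 1 to 4 (C1MDT vs C1MV), 3 to 7 (C1HDT vs C1HV), 0 to 0 (C1HV vs C1MV), 0 to 0 (C1HDT vs C1MDT), and for the interactions 6 to 8 (C1MV), 4 to 7 (C1MDT), 4 to 7 (C1HV), 4 to 9 (C1HDT) and 0 to 0 (drugs by fraction). Of the 161 calls 49 were lost without at least 1 library, mostly in genes of few reads, as named beside each result.

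Depth limits the ligands most: at 1366951 to 3648787 reads per library, 3 reads are 0.837 to 2.14 CPM, and of the 9 untested ligands only Wnt1 and Wnt2 gave calls with no filter (5 calls, from groups of 7 reads at most). Differences between days were not separated from the share of reads outside genes, nor differences between arms from the endoderm, epiblast and pluripotency markers that moved with them.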
